A study of Homo sapiens with 4 samples.

Results

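The 10 genes followed here are ones that SMAD proteins induce or that restrain SMAD signaling, measured in 4 RNA-seq libraries of A549, an established cell line from a human lung adenocarcinoma. The genes were chosen by symbol from the deposited table of 26255 genes, and all 10 were found: PMEPA1, SKIL, SKI, TGFBI, SMURF1, SMURF2, TGIF1, KLF10, BHLHE40 and TSC22D1. One pair of libraries came from A549 xenografts in immunodeficient mice, in which cells of solid-type or of acinar-type growth were taken out by laser microdissection. The other pair came from GFP-labelled A549 cells sorted out of 3D colonies grown without cancer-associated fibroblasts (CAFs, the fibroblasts of a tumor's stroma), the single culture, or with them, the mix culture. All cells are of 1 line, no drug, knockdown or genotype is named for any group, and each group is 1 library. The number of mice behind each xenograft library and the origin of the CAFs were not stated in the labels. The mix title was read as growth with CAFs, the condition that the protocols name besides growth without them.

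TGF-β binds a pair of serine/threonine kinase receptors, which phosphorylate SMAD2 and SMAD3. These join SMAD4, enter the nucleus and act on genes together with other factors, and many of the genes switched on early encode proteins that dampen the same signal. PMEPA1 and SMURF proteins act on receptors and SMADs, SKI, SKIL and TGIF1 repress SMAD-driven transcription, and TGFBI is a secreted matrix protein that serves as a common readout. In lung adenocarcinoma cells TGF-β is known for driving epithelial-mesenchymal transition, and CAFs are a known source of it.

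Levels are given as scaled counts, which are the deposited normalised fragment counts divided by 8.94 in every library. They are not divided by gene length, so they compare libraries for 1 gene and not genes with each other. The libraries held between 6630000 and 12180000 estimated fragments, the tumors fewer than the cultures. All 9 epithelial and A549 markers were at 1 scaled count or more in every library, and none of 5 endothelial markers was. Of 5 leukocyte markers, 4 were at 1 or more in both tumors, summing to 235 scaled counts in the solid and 142 in the acinar library, and to 48.8 and 42.8 in the single and mix cultures. CD68 gave 175 and 113 of the tumor sums and LYZ 49.4 and 23.9. These and CD14 were lower in the acinar library with counting intervals below 1. PTPRC, at 1.26 in the solid and 1.40 in the acinar library, did not differ beyond counting error (0.390 to 3.15). CD3E was below 1 in every library. Host leukocytes of the xenografts are mouse cells, whose RNA a human gene table need not show. The part of these markers in the members' differences was not tested. Because each group is 1 library, every difference lacks replicates and none has a p-value. Intervals are 95% exact intervals of the fragment counting alone, and since no molecular identifiers are named, fragments need not be independent molecules.

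The acinar library was compared with the solid one, and the mix culture with the single culture, to ask whether these genes were higher where the study's title places TGF-β signaling from CAFs. The 2 comparisons share no library. PMEPA1, SKIL and TGIF1 were at least 25% higher in both, with PMEPA1 at 2.58-fold and 1.93-fold. TGFBI and KLF10 passed this limit between the cultures and not between the tumors, which is no test of a difference between the comparisons. No member was 20% lower or more in either, the same limit as a ratio. SKI, SMURF1, SMURF2, BHLHE40 and TSC22D1 stayed within these limits in both. In bulk RNA a higher level in all cells and a larger share of cells with the gene on cannot be told apart.

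Calls used the log2 ratio after adding 1 scaled count to each value, for genes reaching 1 scaled count in either library of a pair, and all 10 members passed that filter. Between the tumors 9 of 10 members had a ratio above 0, beside 50.8% of all genes, but scaling to upper quartiles left 5, beside 41.6%, and scaling to equal totals 8. Of the 10, 3 were at least 25% higher, beside 15.9% of 13979 genes tested, and 1 of 10 was past 2-fold higher, beside 1.98%. None was 20% lower or more, where 18.3% of all genes were, nor past 2-fold lower, where 2.55% were. Between the cultures 8 of 10 had a ratio above 0, beside 52% of all genes. Of the 10, 5 were at least 25% higher, beside 12.9% of 13485 genes, and none was 20% lower or more, beside 16.4%. No member was past 2-fold there, beside 0.682% of genes higher and 1.74% lower. The median log2 ratio of the members was 0.08 between the tumors and 0.34 between the cultures, where all genes tested had medians of 0.01 in each. With upper quartiles the tumor median of the members was 0.0053 and that of all genes -0.06. In both comparisons 7 members had a ratio above 0, beside 29.8% of the 12903 genes tested in both (4 members with upper quartiles), and the 3 at least 25% higher in both stand beside 2.89%. No member was 20% lower in both, where 4.86% of genes were.

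**Figure D1:**
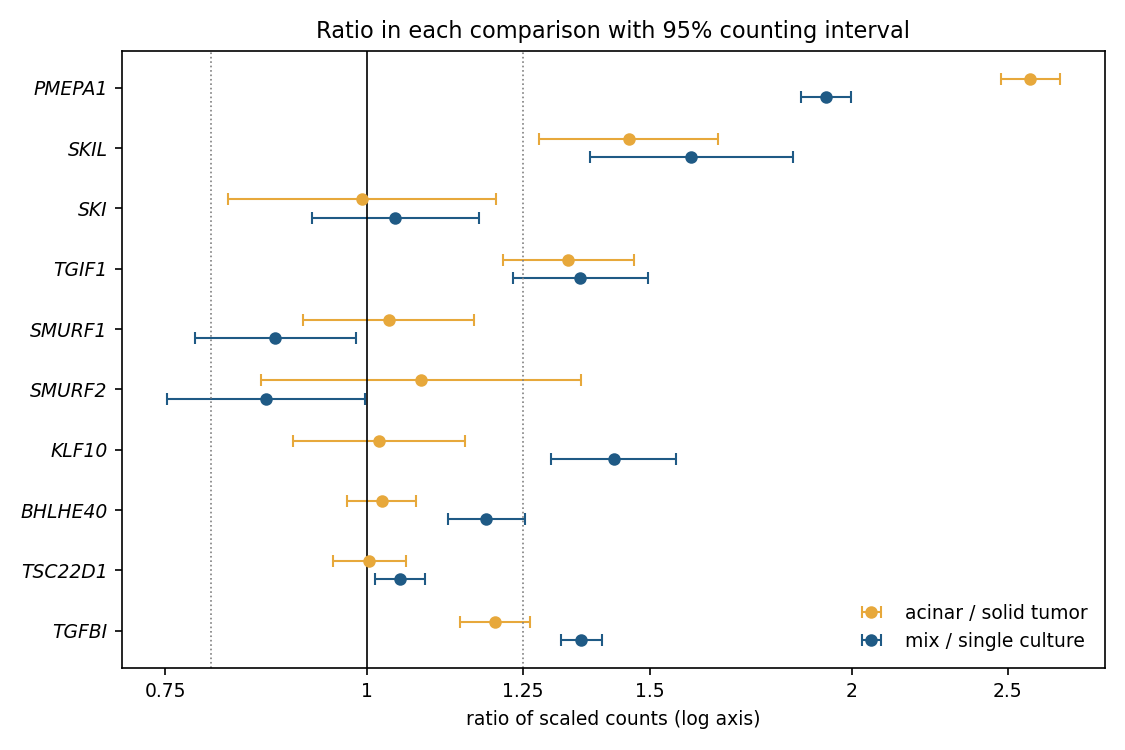
Ratio of scaled counts (log axis) for each of the 10 genes, acinar over solid tumor in orange and mix over single culture in blue; bars are 95% counting intervals, the solid line marks no difference and the dotted lines 25% higher and 20% lower. PMEPA1, at 2.58 and 1.93, lies farthest to the right in both comparisons, and SKIL, at 1.45 and 1.59, comes next, while SKI sits on the line in both.

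By counting error alone, the interval lay above 1 for 4 members between the tumors (PMEPA1, SKIL, TGFBI and TGIF1), beside 18.1% of all genes, and below 1 for none, beside 16.8%. Between the cultures it lay above 1 for 7 members, beside 23.4%, and below 1 for SMURF1 and SMURF2, beside 20.4%. This rule favours genes with many fragments, and PMEPA1, TGFBI, BHLHE40 and TSC22D1 had the most among the members.

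PMEPA1 encodes a membrane protein of endosomes that binds receptor-activated SMADs and NEDD4-type ligases and so limits TGF-β signaling. It was at 437 scaled counts in solid-type tumor, 1129 in acinar-type tumor, 391 in single-culture cells and 755 in mix-culture cells. The acinar tumor had the highest level of the 4 libraries and the mix culture the next, and the solid tumor and single culture lay close to each other at the bottom. The ratio was 2.58 between the tumors (interval 2.48 to 2.69) and 1.93 between the cultures (1.86 to 2.0). In each comparison the ratio lay above that of 99.2% of the genes tested. The estimated fragments of PMEPA1 were not whole numbers in every library, at 3125.18 in the solid tumor for example, so its intervals rest on rounded fragments. How many of its fragments are of uncertain assignment cannot be read from these values.

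The long non-coding RNA gene NKILA overlaps PMEPA1 in the RefSeq annotation of GRCh38.p14 and was looked up after its values were seen. It was at 3.89 scaled counts in solid-type tumor, 7.60 in acinar-type tumor, 3.48 in single-culture cells and 9.30 in mix-culture cells. It too was higher in the acinar and mix libraries, by ratios of 1.95 (interval 1.2 to 3.21) and 2.67 (1.86 to 3.98) on rounded fragments. Its level was between 0.674% and 1.23% of that of PMEPA1. With the strand setting unknown, NKILA fragments cannot be told apart from PMEPA1 fragments of the shared stretch. The NKILA fragments were fractional too, at 27.8 in the solid tumor, so its ratios are not a count separate from PMEPA1.

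SKIL encodes SnoN, a nuclear corepressor that binds SMAD complexes, is degraded when the signal arrives and is then induced by it. Its level was 59.7 scaled counts in solid-type tumor, 86.8 in acinar-type tumor, 26.5 in single-culture cells and 42.1 in mix-culture cells. The acinar and mix libraries were each above their partner, and both tumors were above both cultures. The ratio was 1.45 between the tumors (1.28 to 1.65) and 1.59 between the cultures (1.38 to 1.84), above 92.6% and 97.6% of the genes tested.

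SKI, the closest relative of SKIL and a corepressor of the same SMAD complexes, did not follow it. Its level was 32.4 scaled counts in solid-type tumor, 32.2 in acinar-type tumor, 46.1 in single-culture cells and 48.1 in mix-culture cells. The ratios were 0.994 (0.820 to 1.2) and 1.04 (0.925 to 1.17), so neither difference went beyond counting error, and differences up to about the bounds of these intervals could not be seen at this depth. SKI was lower in the tumors, where SKIL was higher.

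TGIF1 encodes a homeodomain repressor that recruits histone deacetylases to SMAD2 and SMAD3. It was at 114 scaled counts in solid-type tumor, 153 in acinar-type tumor, 63.2 in single-culture cells and 85.7 in mix-culture cells. The order of the 4 libraries was that of SKIL, with the acinar tumor highest and the single culture lowest. The ratios of 1.33 (1.21 to 1.47) and 1.36 (1.23 to 1.49) were close to each other, and their intervals overlap almost fully. They lay above 88.7% and 92.8% of the genes tested.

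The promoters of the 3 genes that were higher in both comparisons are shown to let their starts be compared. The PMEPA1 and TGIF1 windows were picked, after the matches were seen, from those that hold CAGACA, so their sharing it is no finding. All are RefSeq windows of the GRCh38.p14 build, from 250 bases before to 50 after an annotated start, 5′ to 3′ on the gene's strand, with motif matches in capitals. The 4 motifs were searched on both strands: the palindromic SMAD binding element GTCTAGAC, a shorter form of the SMAD element spelled CAGACA, the AP-1 site TGACTCA, and the E-box written CACGTG. The first and the last read the same on both strands.
PMEPA1 (chr20:57710528-57710827, minus strand): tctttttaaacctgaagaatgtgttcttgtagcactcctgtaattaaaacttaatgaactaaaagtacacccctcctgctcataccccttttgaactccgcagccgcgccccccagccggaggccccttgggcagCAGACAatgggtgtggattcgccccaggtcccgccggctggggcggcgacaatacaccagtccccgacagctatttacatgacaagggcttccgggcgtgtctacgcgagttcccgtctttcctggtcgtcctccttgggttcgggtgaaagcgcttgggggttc
SKIL (chr3:170357465-170357764, plus strand): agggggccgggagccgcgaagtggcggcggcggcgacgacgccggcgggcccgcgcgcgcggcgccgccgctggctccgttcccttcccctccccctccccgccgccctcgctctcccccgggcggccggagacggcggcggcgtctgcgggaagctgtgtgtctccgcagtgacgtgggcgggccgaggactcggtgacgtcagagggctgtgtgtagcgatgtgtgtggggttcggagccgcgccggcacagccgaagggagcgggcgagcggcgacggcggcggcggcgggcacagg
TGIF1 (chr18:3448181-3448480, plus strand): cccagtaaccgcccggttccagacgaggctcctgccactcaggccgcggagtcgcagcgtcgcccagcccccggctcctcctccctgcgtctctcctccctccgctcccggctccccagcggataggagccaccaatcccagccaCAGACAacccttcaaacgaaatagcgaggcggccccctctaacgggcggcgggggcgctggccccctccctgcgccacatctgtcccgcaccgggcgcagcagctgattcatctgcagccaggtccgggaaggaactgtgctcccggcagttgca
The PMEPA1 window holds CAGACA with its first base at -115 from the start, and the TGIF1 window holds it at -105. The SKIL window holds none of the 4 motifs. PMEPA1 has 4 annotated start windows and TGIF1 has 7, of which 1 and 3 hold CAGACA.

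Across members, 21 windows of 8 genes were searched, some of them overlapping, and none was of SKI or KLF10. Member windows on chromosome 8 were left out, while the windows of all genes were not limited in this way. CAGACA was in 6 of the 21, beside 16.9% of all 35116 windows, and GTCTAGAC was in none, beside 0.202%. TGACTCA was in 1 window of TSC22D1, beside 4.95% of all windows, and CACGTG in 2, beside 7.26%. A match is a run of letters and no evidence of binding, and windows of this length leave out introns and distant enhancers.

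SMURF1 and SMURF2 encode closely related E3 ubiquitin ligases that, brought by SMAD7, mark the TGF-β receptors and SMADs for degradation. SMURF1 was at 76.6 scaled counts in solid-type tumor, 79.1 in acinar-type tumor, 53.8 in single-culture cells and 47.2 in mix-culture cells. SMURF2 was at 22.1, 23.9, 36.2 and 31.3 scaled counts in the same order. Neither followed PMEPA1 or SKIL, and each was slightly lower in the mix than in the single culture. The tumor ratio was 1.03 for SMURF1 (0.913 to 1.17), which turned below 1 with scaling to upper quartiles, and 1.08 for SMURF2 (0.860 to 1.36). The culture ratios were 0.878 (0.782 to 0.985) and 0.866 (0.752 to 0.997), so both intervals end just short of no difference. SMURF1 fragments were not whole numbers and its intervals rest on rounded ones.

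KLF10, also known as TIEG1 for its early induction by TGF-β, encodes a zinc finger repressor. It was at 77.1 scaled counts in solid-type tumor, 78.5 in acinar-type tumor, 71.9 in single-culture cells and 102 in mix-culture cells. The mix culture stood above the other 3 libraries, which lay within 7 scaled counts of each other. The ratio was 1.42 between the cultures (1.30 to 1.56) and 1.02 between the tumors (0.901 to 1.15), the last below 1 with scaling to upper quartiles. The difference between the 2 comparisons was not tested.

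KLF10 is also an immediate early gene, so other such genes are given beside it. Of 11 fixed immediate early genes, 10 were at least 25% higher in the mix culture, beside 12.9% of all genes. The summed level of the 11 was 2315 scaled counts in the mix and 1091 in the single culture. Between the tumors 3 were at least 25% higher, beside 15.9%, and 3 at least 20% lower, beside 18.3%. The summed levels were 1872 in the acinar and 1840 in the solid tumor. EGR1, a zinc finger factor induced by serum and stress, was at 20.6, 7.29, 101 and 313 scaled counts in the solid, acinar, single and mix libraries. The part of this shift in the KLF10 level was not tested.

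BHLHE40 encodes a basic helix-loop-helix repressor, also called DEC1, that binds E-boxes, represses clock genes and is induced by TGF-β, hypoxia and other inputs. It was at 468 scaled counts in solid-type tumor, 478 in acinar-type tumor, 203 in single-culture cells and 241 in mix-culture cells. The tumors did not differ beyond counting error (ratio 1.02, 0.972 to 1.07, below 1 with scaling to upper quartiles), and the mix culture was 1.19-fold above the single culture (1.12 to 1.254). The larger difference was between tumors and cultures, with the lower tumor 1.94-fold above the higher culture. Its antisense gene BHLHE40-AS1 was at 1.09 to 1.77 scaled counts, at most 0.735% of its level.

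Since hypoxia also induces BHLHE40, hypoxia genes are given beside it. All 12 fixed hypoxia genes had a log2 ratio below 0 between the tumors, where 50.8% of all genes were above 0. In the acinar library 11 of them were at least 20% lower, beside 18.3% of all genes, and their median log2 ratio was -0.75. The BHLHE40 log2 ratio was 0.03. Between the cultures 8 of the 12 were at least 20% lower in the mix culture (median -0.47), beside 16.4% of all genes, and BHLHE40 was at 0.25. For 4 of the 12 both tumors were above both cultures and for 4 below, beside 39.8% and 38.7% of all genes. The part of hypoxia in the BHLHE40 level was not tested. The window of the BHLHE40 promoter is shown because it holds the E-box, the element that BHLHE40 protein itself binds.
BHLHE40 (chr3:4979187-4979486, plus strand): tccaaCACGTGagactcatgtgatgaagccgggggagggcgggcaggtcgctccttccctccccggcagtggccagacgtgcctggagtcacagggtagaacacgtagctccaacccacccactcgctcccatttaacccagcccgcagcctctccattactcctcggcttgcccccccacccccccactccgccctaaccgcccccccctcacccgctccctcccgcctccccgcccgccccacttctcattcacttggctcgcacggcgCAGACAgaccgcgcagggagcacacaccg
The E-box begins at -245 from the start and CAGACA at 21. Of 8 clock genes that BHLHE40 works beside, 2 were past the 25% limit higher and 2 past the 20% limit lower in each comparison. The shares over all genes were 15.9% and 18.3% between the tumors and 12.9% and 16.4% between the cultures. The period gene PER1 was at 125 and 135 scaled counts in the solid and acinar tumors and 35.8 and 47.4 in the single and mix cultures. It was 1 of 6 of these 8 genes with both tumors above both cultures, beside 39.8% of all genes. BHLHE41, a relative of BHLHE40, had both tumors below both cultures.

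TSC22D1 encodes a leucine zipper protein first found as a TGF-β-stimulated clone, which can help SMAD transcription by binding SMAD7. It had the narrowest range of the 10 genes. The level was 423 scaled counts in solid-type tumor, 424 in acinar-type tumor, 511 in single-culture cells and 536 in mix-culture cells. The ratio of 1.004 between the tumors (0.953 to 1.06) changed sign on the log2 scale with 2 scalings, to equal totals and to upper quartiles, and the culture ratio was 1.05 (1.01 to 1.09). The intervals rest on rounded fragments, and the antisense gene TSC22D1-AS1 was at most 1.06 scaled counts.

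TGFBI encodes a secreted matrix protein with fasciclin domains that binds integrins and collagens. It was at 418 scaled counts in solid-type tumor, 503 in acinar-type tumor, 669 in single-culture cells and 909 in mix-culture cells. The acinar and mix libraries were again above their partners, but here both cultures were above both tumors. The ratio between the cultures was 1.36 (1.32 to 1.40). Its log2 value of 0.44 was past the 25% limit, above 93.0% of genes, and the tumor log2 ratio of 0.26 was not, above 79.7%.

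**Figure D2:**
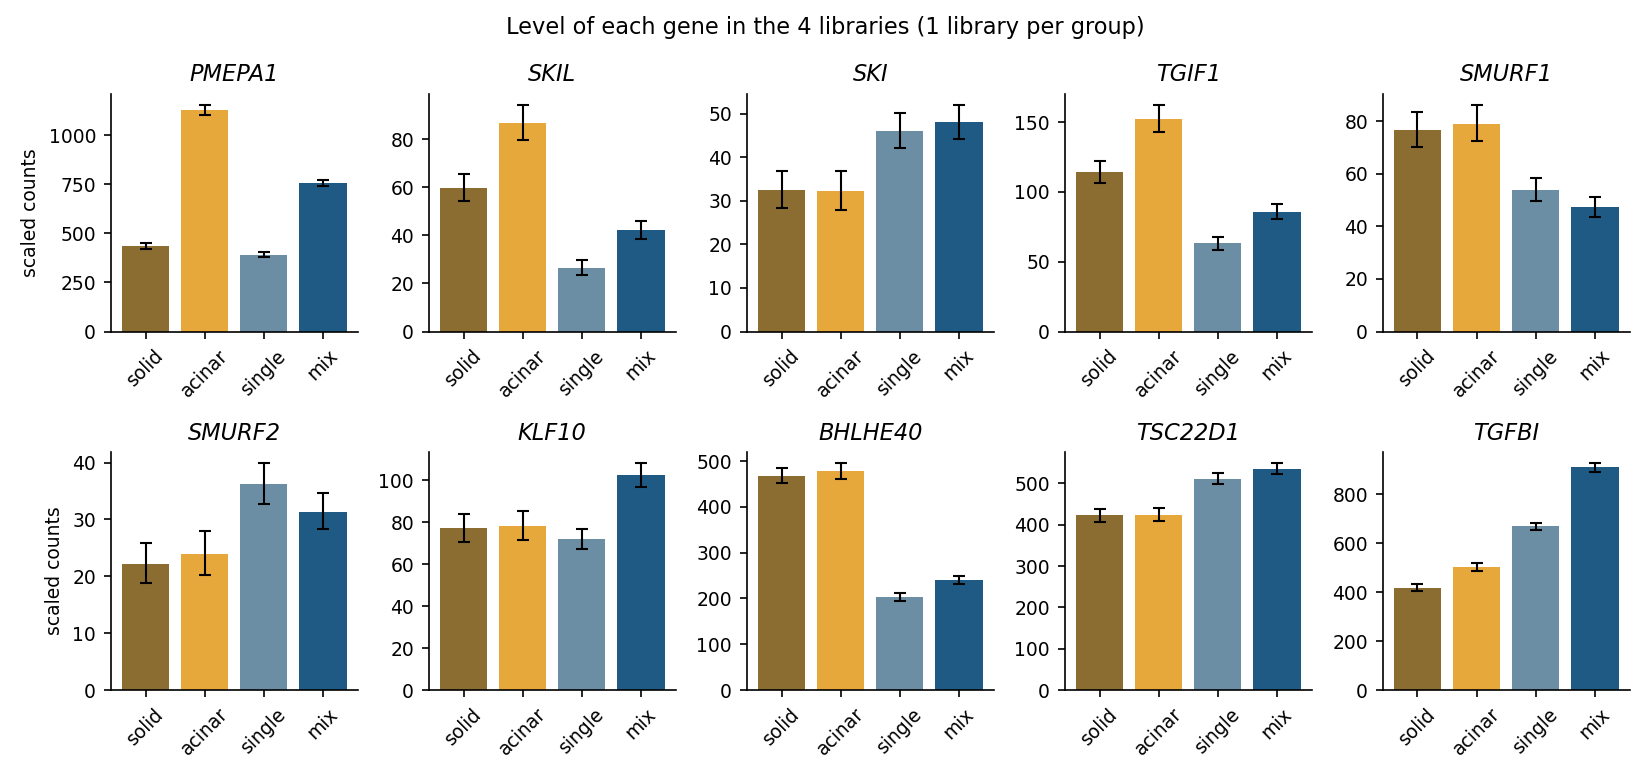
Level of each of the 10 genes in scaled counts (linear axes from 0, a separate scale per gene) in the solid tumor, acinar tumor, single culture and mix culture; bars are 1 library each and error bars are exact 95% Poisson counting intervals. PMEPA1, SKIL, TGIF1 and TGFBI show the acinar and mix bars above their partners, with PMEPA1 reaching 1129 in the acinar tumor and TGFBI 909 in the mix culture.

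Fibroblasts also make TGFBI and PMEPA1, so fibroblast markers are given beside them. The 14 fixed markers summed to 120 scaled counts for single-culture and 137 for mix-culture cells, with FBLN1 alone at 75.01 and 89.4. The fibroblast genes DCN, FAP, POSTN and MFAP5 were listed at 0 in both cultures, COL1A2 was at 0 and 0.161 and COL3A1 at 0.356 and 0.564 scaled counts. COL1A1 was at 19.3 without CAFs and 29.5 with them. ACTA2 went the other way, at 21.4 without CAFs and 13.3 with them (ratio 0.620, 0.506 to 0.759). PDGFRA was at 1.96 and 1.13, with an interval that included no difference (0.273 to 1.18). Of 5 markers measured between the cultures, COL1A1, THY1 and FBLN1 were higher with CAFs, and ACTA2 and PDGFRA were lower. THY1 had 15 fragments without CAFs and 25 with them, and its interval included no difference (0.766 to 3.08). In the tumors the markers summed to 312 in the solid and 670 in the acinar library, mostly MFAP5 at 225 and 563, with LUM at 19.6 and 55.4. POSTN was at 0 in both tumors, and DCN, COL1A2 and COL3A1 were each at 0.155 to 1.12. Of 7 markers measured between the tumors, 3 were past 2-fold higher (LUM, FAP and MFAP5) and 1 lower (FBLN1) in the acinar library. Over all genes these shares were 1.98% and 2.55%. FAP had 3 fragments in the solid and 14 in the acinar tumor, and passed the filter only through the acinar library. Host fibroblasts of the xenografts are mouse cells, whose RNA a human gene table need not show, and the part of these markers in the TGFBI and PMEPA1 levels was not tested.

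The tumors and the cultures were then set side by side, although xenograft against culture, laser capture against sorting and depth cannot be told apart between them. SKIL, SMURF1, TGIF1 and BHLHE40 were higher in both tumors than in both cultures, and SKI, TGFBI, SMURF2 and TSC22D1 were lower. These 4 and 4 of 10 stand beside 39.8% and 38.7% of 14561 genes, so the members separate the settings about as often as genes in general. PMEPA1 and KLF10 overlapped between the settings. The pairs of related genes were split. The mean of the tumors over the mean of the cultures was 2.14 for SKIL and 0.687 for SKI, and 1.54 for SMURF1 and 0.681 for SMURF2. The gap between the nearest tumor and culture was 1.42-fold for SKIL, SKI and SMURF1 and 1.31-fold for SMURF2.

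**Figure D3:**
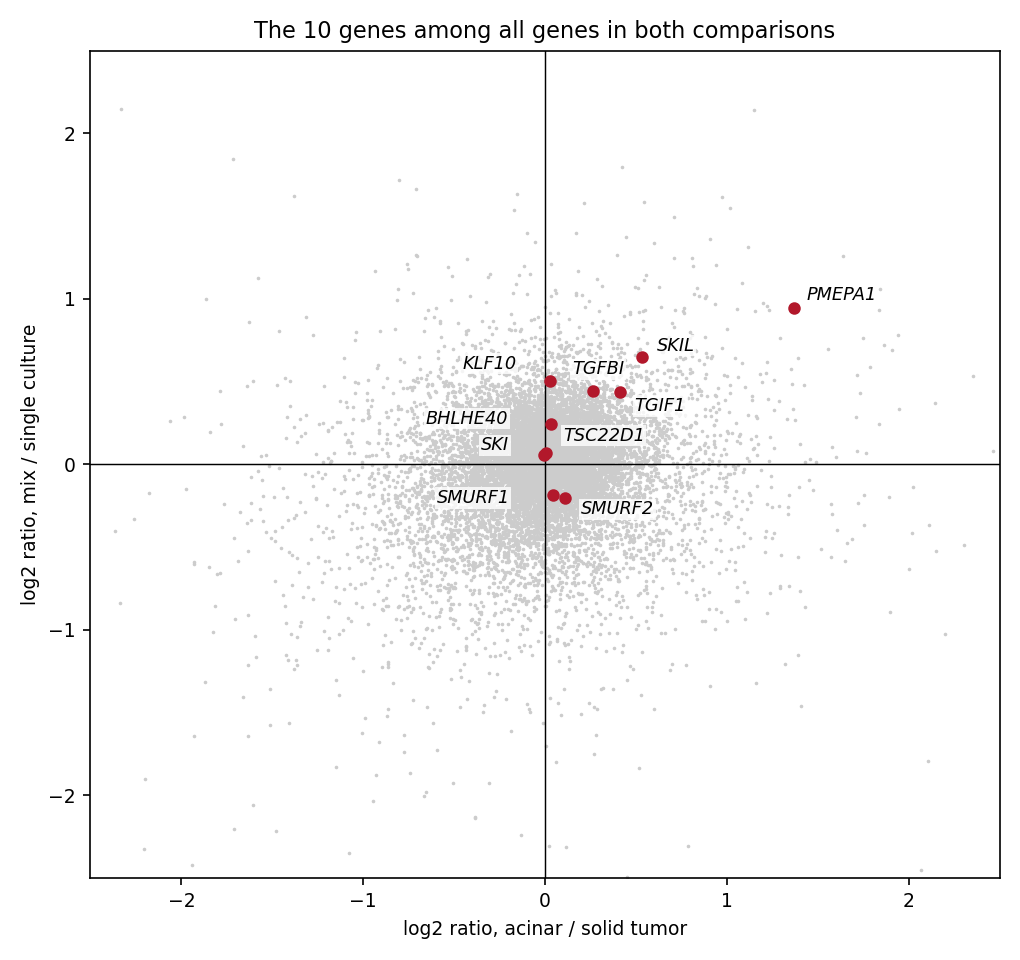
Log2 ratio between the tumors (x axis) against log2 ratio between the cultures (y axis) for genes tested in both; grey points are the other genes, of which 23 fall outside the axes, and red points are the 10 members. PMEPA1 lies at the upper right at 1.37 and 0.95, SKIL and TGIF1 lie between it and the centre, and SMURF1 and SMURF2 lie below the horizontal line.

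The genes most like the 3 members of widest range were taken by the distance between mean-centred log2 levels over the 4 libraries, among 10049 genes with a mean of 10 scaled counts or more. With 4 points such a likeness is a description only. For SKIL (range 1.68) they were ANKRD29, VCPKMT and ZYX, at distances of 0.09, 0.11 and 0.13. ZYX, which encodes the focal adhesion protein zyxin, was at 206, 332, 97.9 and 146 scaled counts in the solid, acinar, single and mix libraries. For PMEPA1 (range 1.53) they were TCF7, RELB and SOCS2, farther off at 0.23 to 0.35. RELB, a subunit of NF-κB, was at 19.9, 52.4, 21.3 and 30.3 scaled counts in the same order. For TGIF1 (range 1.26) they were PRSS23, TRIM35 and MORN2, at 0.04 to 0.08, and the protease gene PRSS23 was at 546, 726, 310 and 423.

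Genes upstream of the members went both ways. Of 13 ligands, receptors and SMADs, 12 were measured in each comparison. In the acinar tumor 1 passed the 25% limit higher and 3 the 20% limit lower, beside 15.9% and 18.3% of all genes. In the mix culture 1 was higher and 5 lower by these limits, beside 12.9% and 16.4%. The ligand gene TGFB1 was at 32.0 and 33.6 scaled counts in the solid and acinar tumors and 315 and 308 in the single and mix cultures, so it followed the setting and neither comparison. The receptor kinase gene TGFBR1 was 2.24-fold higher in the acinar tumor (2.15 to 2.34) and 0.911-fold in the mix culture (0.822 to 1.01). The other receptor kinase gene, TGFBR2, was at 219 and 230 scaled counts in the tumors and stood lower in the mix culture, at 442 against 645. SMAD3 was at 165, 172, 237 and 214 scaled counts in the solid, acinar, single and mix libraries, and SMAD2 at 128, 135, 147 and 232.

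Of 17 other negative regulators of SMAD signaling, 3 were at least 25% higher and none 20% lower in the acinar tumor. In the mix culture 1 was higher and 1 lower by these limits. Over all genes the limits took in 15.9% higher and 18.3% lower between the tumors, and 12.9% and 16.4% between the cultures. SMAD7, the inhibitory SMAD that recruits SMURF proteins, was the 1 of these regulators past the 25% limit in both. It was at 11.3, 14.7, 4.44 and 8.29 scaled counts in the solid, acinar, single and mix libraries, and its tumor interval included no difference (0.957 to 1.77). The pseudoreceptor gene BAMBI was 1.69-fold higher in the acinar tumor (1.55 to 1.84) and at 34.3 against 40.9 scaled counts in the mix and single cultures. Other genes that TGF-β induces were at least 25% higher in 11 of 16 measured between the tumors, beside 15.9% of all genes. Between the cultures 9 of 16 were, beside 12.9%. In each comparison 2 were at least 20% lower, beside 18.3% and 16.4%. Of the 15 measured in both, 7 were at least 25% higher in both, beside 2.89% of all genes. SPHK1, a sphingosine kinase gene, had ratios of 3.34 between the tumors (2.51 to 4.50) and 3.07 between the cultures (1.91 to 5.13). Both were larger than those of PMEPA1. Others of the list did not rise alike. TAGLN had ratios of 5.39 (4.09 to 7.18) and 0.561 (0.258 to 1.17), the last on 13 and 21 fragments. NEDD9 had 1.32 (1.22 to 1.44) and 0.790 (0.731 to 0.853), and ANGPTL4 had 0.311 (0.274 to 0.353) and 1.08 (1.01 to 1.16). These lists overlap in kind with genes already known to be higher in these libraries, so their counts are no independent evidence.

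Of 11 relatives of the members measured between the tumors, 5 were at least 25% higher and none 20% lower, beside 15.9% and 18.3% of all genes. Of 9 between the cultures none was higher and 1, TGIF2, was lower, beside 12.9% and 16.4%. Between the tumors, SKOR1 and LDLRAD4 passed the filter only through the acinar library, where they were higher, so the filter favoured their calls. SKOR1 had 3 fragments in the solid and 9 in the acinar tumor. The tumor intervals of SKOR1 (0.830 to 19.1) and BHLHE41 (0.757 to 4.37) included no difference. The median log2 ratio of the relatives was 0.30 between the tumors and 0.02 between the cultures, where the members had 0.08 and 0.34. These differences were not tested. KLF11, the relative of KLF10, was 2.31-fold higher in the acinar tumor (1.87 to 2.86), where KLF10 was level, and 1.04-fold in the mix culture (0.763 to 1.43), where KLF10 was higher. TGIF2 was at 6.43 and 9.46 scaled counts in the solid and acinar tumors, higher in the acinar library like TGIF1, though its interval included no difference (0.986 to 2.205). It was at 18.1 scaled counts without CAFs and 14.2 with them, the direction opposite to TGIF1. LDLRAD4, a relative of PMEPA1, had 11 fragments in the acinar and 1 in the solid tumor (ratio 12.2, 1.77 to 525), and 1 and 0 in the cultures. The glucocorticoid-induced TSC22D3 was at 389 and 478 scaled counts in the tumors and 90.5 and 73.3 in the cultures, while TSC22D1 was higher in the cultures.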

How the data were processed

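The submitters' processing notes list build hg19, Cuffdiff 2.2.1, TopHat2 2.0.13, SAMtools 1.0 and Bowtie2 2.2.3. Nothing read here states the annotation, the filters or the use of strand. The authors deposited 1 table with a signal per gene and library. Its values behave as fragment counts multiplied by 1 step per library, found from the values. Of those above 0, 90.0% to 91.2% were whole multiples of the step within 0.05. The rest were fractional, so no count model was fitted. Fragments are values divided by the step.

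All libraries were divided by 8.94, which brings their mean total to that of CPM values. The plan held no replicate and no test: ratios, counts past 25% higher, 20% lower and 2-fold, and exact (Clopper-Pearson) intervals, with Python 3.11.15 and scipy 1.17.1, checked on simulated fragments. An upper limit of 3 fragments is 0.242 to 0.465 scaled counts. Alternatives were 2 pseudocounts, 2 filters, 3 scalings and whole-fragment genes only. All members, 5 key pathway genes, up to 4 genes per list past 2-fold, and nearest patterns were named; other names were chosen after their values were seen. Members and lists were chosen with earlier results of these data known.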

Additional observations from a re-analysis of the deposited data

How the results depend on the processing

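None of the counts of members past 25% higher or 20% lower, or with tumors and cultures apart, moved by more than 1.5 times under the 8 alternatives, and no member past these limits changed sign. With only genes of whole fragments PMEPA1, SMURF1 and TSC22D1 dropped out, so 7 members were left. Scaling to equal upper quartiles took the acinar to solid log2 ratios of PMEPA1 to 1.29, TGFBI to 0.19 and BHLHE40 to -0.04, outside their counting intervals. That scaling lowers every gene's ratio by about the same amount, and the median of all genes went from 0.01 to -0.06. It moved the number of members above 0 between the tumors from 9 to 5. The counts over all genes depended on the pseudocount. With 0.1 the genes past 2-fold higher and lower were 478 and 692 between the tumors and 192 and 522 between the cultures. With 5 they were 114 and 101, and 33 and 73; genes at least 20% lower were then 1547 between the tumors, and those at least 25% higher and 20% lower 1080 and 1305 between the cultures. A filter of 5 scaled counts left fewer genes, with 1693 at least 20% and 203 at least 2-fold lower between the tumors and 1461 at least 20% lower between the cultures. No paired analysis was possible because each group has 1 library, and for the same reason no library could be left out. Depth limits SMURF2 and SKI most in the tumors, at 154 to 158 and 208 to 232 fragments, and SKIL and SMURF2 in the cultures, at 298 to 523 and 389 to 407.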
